A study of Mus musculus with 6 samples.

Results

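Smooth muscle cells shorten by sliding actin filaments past myosin II, and nearly every other cell keeps a smaller version of the same machinery for adhesion, stiffness and movement. Its genes were followed here in primary mouse keratinocytes, the epithelial cells of the epidermis, with and without iASPP, the inhibitory member of the ASPP family of p53-binding proteins, which is encoded by *Ppp1r13l*. The 10 genes are *Myl9*, *Acta2*, *Actg2*, *Tagln*, *Cnn1*, *Cald1*, *Tpm1*, *Tpm2*, *Flna* and *Vcl*. They were chosen by function, around *Myl9*, which was selected on these values because it was among the largest falls after deletion of iASPP. All 10 were found among the 55367 gene names counted, and all 10 were among the 14916 names with enough reads to be tested. Because the choice rests on the comparison of iASPP-KO with iASPP-WT, that comparison is given for these genes as a description: no p-value is attached to it, and where calls among them are counted nothing is read from the count.

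Keratinocytes were isolated from the skin of pups at day 2, from mice of mixed C57BL/6 and 129/Sv background whose genotype was Ppp1r13l flox/flox with Cre+ERT, a recombinase that tamoxifen activates. Each of 3 batches held a culture given tamoxifen (iASPP-KO, n = 3) and a culture without it (iASPP-WT, n = 3). RNA was sequenced after removal of ribosomal RNA in single reads of 42 bases. Both groups therefore shared the floxed alleles and the Cre, low-calcium medium on collagen, a medium change 24 h after plating and a further 4 days of culture. Tamoxifen was given at 1 mM by the sample labels and at 1 μM by the study's methods, and as control cultures received none, effects of the drug and of the deletion cannot be told apart. The Cre was expressed from the Rosa26 locus, which is active in most cell types, so cells other than keratinocytes in a culture could lose iASPP as well.

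Actin in smooth muscle is made from *Acta2* and *Actg2*, and its myosin is switched on when the regulatory light chain, the product of *Myl9*, is phosphorylated. Tropomyosins (*Tpm1*, *Tpm2*), caldesmon (*Cald1*), calponin (*Cnn1*) and transgelin (*Tagln*) lie along the actin filament and regulate or stabilise it, while filamin A (*Flna*) crosslinks filaments and vinculin (*Vcl*) ties them to adhesion sites. Many of these genes are known targets of serum response factor (SRF), which binds CArG boxes in DNA together with myocardin-related coactivators (MRTFs) that are released to the nucleus when monomeric actin runs low.

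The known target site of SRF, the CArG box, was looked for in RefSeq promoters (GRCm38.p6), each covering 250 bases before a start site and 50 bases from it. A promoter was found for 8 of the 10 genes, all except *Tagln* and *Actg2*. The stretches with a box, in *Myl9*, *Vcl* and *Acta2*, are shown because SRF is the factor for which this group of genes is known. All are written 5′ to 3′ on the strand of the gene, with the boxes in capitals. The *Myl9* stretch (chr2:156775283-156775394, plus strand) holds boxes that begin 161 and 99 bases before the start site. The *Vcl* stretch (chr14:20929151-20929200, plus strand) holds 1 that begins 227 bases before it. The boxes of the *Acta2* sites (chr19:34255438-34255467 and chr19:34255388-34255417, minus strand) begin 84 and 34 bases before the start site. The region that spans these *Acta2* boxes overlaps a UTR annotated by GENCODE.
Myl9: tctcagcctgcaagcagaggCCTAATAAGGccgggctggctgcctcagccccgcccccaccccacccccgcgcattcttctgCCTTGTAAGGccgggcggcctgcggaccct
Vcl: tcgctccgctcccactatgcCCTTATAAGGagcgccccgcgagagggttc
Acta2, distal site: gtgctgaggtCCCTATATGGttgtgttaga
Acta2, proximal site: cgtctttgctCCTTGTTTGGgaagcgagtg

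A strict CArG box has only A and T among its 6 inner letters. By that rule *Myl9* (its distal box) and *Vcl* were the 2 of 8 genes with a match, against 1.63% of all 32851 promoters in the table. With at most 1 G or C allowed inside the box, a rule added after the strict one, *Acta2* joined them and the proximal *Myl9* box was matched too, which made 3 of 8 genes, against 9.98% of promoters. No box of either form was found in the promoters of *Cnn1*, *Cald1*, *Tpm1*, *Tpm2* and *Flna*. The letters of an AP-1 site (TGANTCA, either strand) occurred in 1 of 8 genes, *Cald1*, and in 7.81% of promoters. The letters bound by TEAD factors (GGAATG, either strand) occurred in 5 of 8 genes, *Acta2*, *Cald1*, *Flna*, *Tpm1* and *Vcl*, and in 14.7% of promoters. CArG boxes, AP-1 letters and TEAD letters do not overlap in these windows. The genes were chosen as contractile genes of the SRF type, so nothing is read from the shares with a CArG box. A match describes letters in a window and is not evidence of binding, and boxes outside the windows, such as those in introns, were not looked for.

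Library totals ran from 20202517 to 25157117 counts. *Ppp1r13l* itself was lower in every iASPP-KO library than in its batch partner, with 14.2, 17.7 and 5.90 CPM (the count relative to the total of the library, scaled by TMM) in iASPP-KO and 32.6, 45.1 and 21.0 in iASPP-WT (log2 fold change −1.45, SE 0.18, adjusted p = 0.0030 in edgeR's quasi-likelihood F test, adjusted by the Benjamini-Hochberg method). The count covers all exons of the gene, so it does not give the share of cells that lost the floxed exon. The keratinocyte label was met by *Krt5* (4529 to 5917 CPM) and *Krt14* (14937 to 17547 CPM), the keratins of the basal layer. Of 7 keratinocyte markers, *Krt10*, a keratin of differentiating layers, was called lower in iASPP-KO (log2 fold change −1.31, SE 0.29, adjusted p = 0.033 by edgeR), and the other 6 were not called. Of the markers that define smooth muscle, *Myh11* had 0 to 19 counts per library, *Des* 0 to 9 and *Kcnmb1* 0 to 4, so the smooth-muscle-type genes below were measured in cultures in which these markers were at or near 0. In bulk RNA, fewer cells of a type and less RNA per cell cannot be told apart.

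Per kilobase of exon, a scale on which genes can be compared, the 10 genes spanned from abundant to almost silent in iASPP-WT. *Flna*, with a median of 195 CPM per kb (range 177 to 224), and *Tpm1*, with 193 (186 to 198), were the highest, and their ranges overlapped. *Tpm2* followed at 114 (92.9 to 143), apart from both neighbours. Next came *Vcl* at 32.4 (24.0 to 39.5), *Acta2* at 29.6 (21.7 to 59.0), *Myl9* at 20.8 (12.4 to 37.9) and *Cald1* at 18.9 (18.7 to 19.5), and within this set each gene overlapped the next in the order. The level of *Tagln*, 3.98 CPM per kb (3.35 to 5.03), lay apart from *Cald1* above it and from *Actg2* below it. *Actg2* at 0.631 (0.257 to 0.842) and *Cnn1* at 0 (0 to 0.406) closed the order with overlapping ranges. The general cytoskeletal members therefore stood at the top, and 3 of the genes best known from differentiated smooth muscle, *Tagln*, *Actg2* and *Cnn1*, at the bottom. Exon length here is the sum over all annotated exons of a gene name, which for *Cald1* is 12041 bases, longer than any single transcript, so levels per length are understated for genes with many isoforms.

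**Figure D1:**
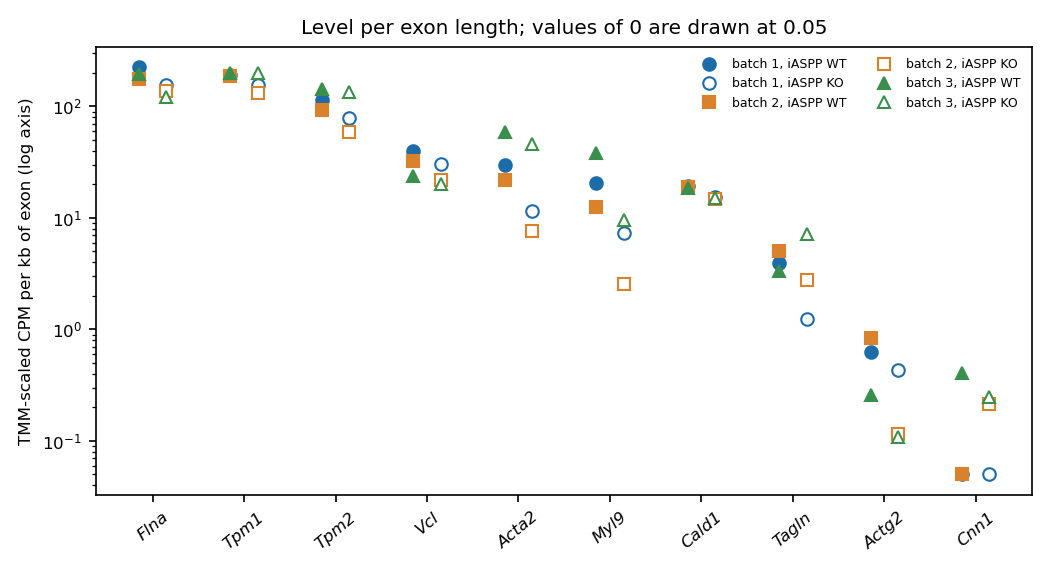
Level of each gene in each library, in TMM-scaled CPM per kb of exon on a log axis, with filled symbols for iASPP-WT, open symbols for iASPP-KO and colour and shape for the batch. The genes are ordered by their iASPP-WT median, from 195 for *Flna* to 0 for *Cnn1*, and values of 0 are drawn at 0.05.

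The central gene, *Myl9* (chromosome 2, 156775420 to 156781658), encodes the regulatory light chain of smooth muscle and nonmuscle myosin II. It had 192, 66 and 261 counts across batches 1, 2 and 3 of iASPP-KO, against 516, 353 and 990 for iASPP-WT. On the CPM scale these were 8.54, 2.96 and 11.1 against 24.1, 14.5 and 44.0, a mean of 7.52 ± 4.15 against 27.5 ± 15.1 (SD, n = 3). Every iASPP-KO library was below every iASPP-WT library, although the highest iASPP-KO value (batch 3) and the lowest iASPP-WT value (batch 2) were close. The log2 fold change was −1.49, −2.26 and −1.98 within the batches and −1.91 (SE 0.21) in the fit over all of them, which has batch and condition as terms, a level 3.76-fold higher in iASPP-WT. It took place 110 among all 14916 genes when ordered by log2 fold change from the lowest.

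Other genes make light chains of the same kind, and *Myl9* took a minor part of the reads on them, uncorrected for exon length. Per kb of exon, *Myl9* stood at 20.8, 12.4 and 37.9 CPM in batches 1, 2 and 3 of iASPP-WT. On that scale *Myl12a* was higher, at 39.7, 44.3 and 50.8, and *Myl12b* lower, at 4.41, 6.76 and 3.39. Of the reads on *Myl9*, *Myl12a* and *Myl12b* together, *Myl9* took 4.97%, 1.64% and 5.23% in the iASPP-KO libraries of batches 1, 2 and 3. In iASPP-WT the share was 14.2%, 7.95% and 19.6%. The exact Clopper-Pearson 95% interval, which covers counting error only, was 1.27% to 2.09% for the lowest of these shares and 18.5% to 20.8% for the highest. Both relatives, which encode nonmuscle regulatory light chains, had log2 fold changes above 0 that missed the threshold: 0.13 (SE 0.11) for *Myl12a* and 0.24 (SE 0.21) for *Myl12b* (adjusted p = 0.645 and 0.643 by edgeR). Read-length stretches shared with other transcripts made up 30.3% of *Myl12a* and 13.7% of *Myl12b* but 0% of *Myl9*, so the counts of the relatives are the less certain.

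**Figure D2:**
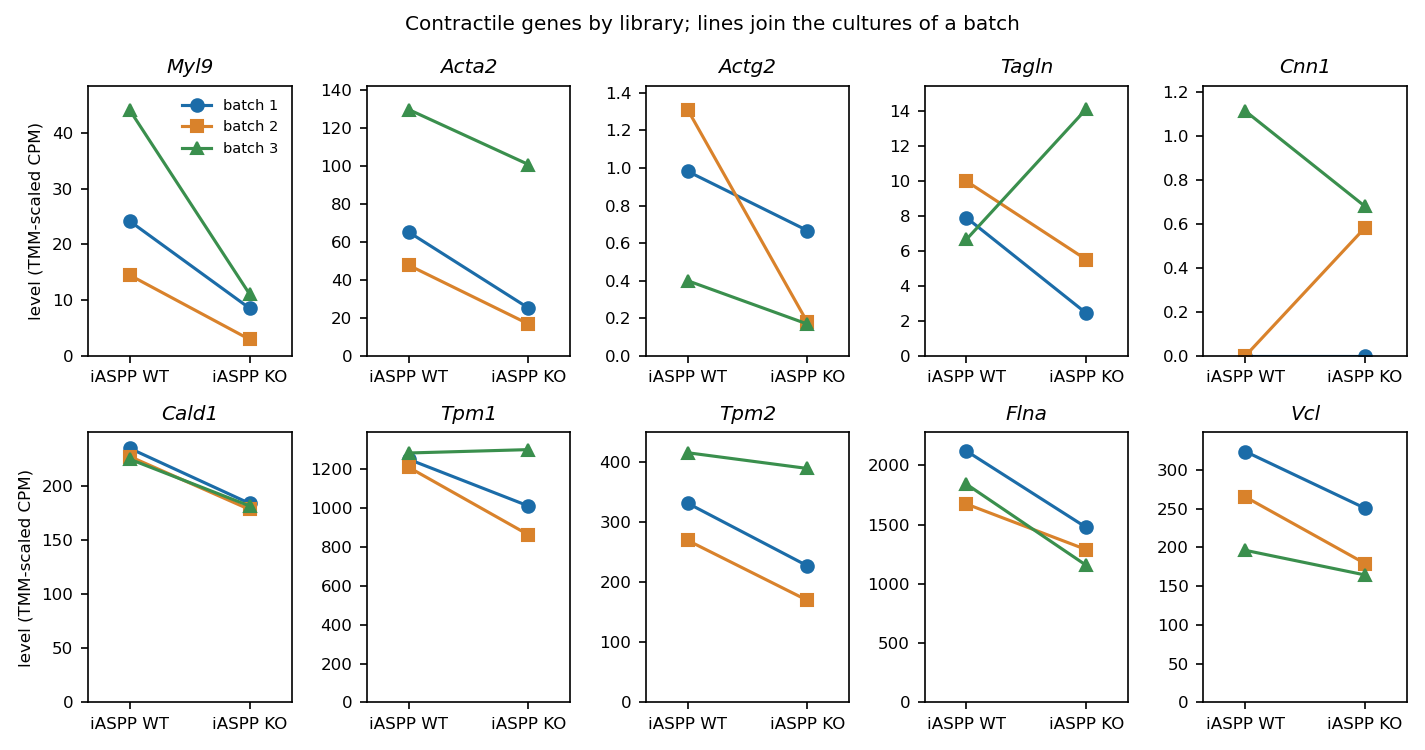
Level of the 10 genes in TMM-scaled CPM in iASPP-WT and iASPP-KO, each panel with its own axis from 0 and each line joining the cultures of 1 batch. All lines fall for *Myl9* (24.1, 14.5 and 44.0 to 8.54, 2.96 and 11.1), whereas for *Tagln* the line of batch 3 rises from 6.67 to 14.1.

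*Acta2* (chromosome 19, 34241090 to 34255590), the smooth muscle alpha-actin gene, also stood lower in iASPP-KO, by less in batch 3 than in the others. Its counts were 566, 375 and 2373 in iASPP-KO and 1392, 1164 and 2914 in iASPP-WT, or 25.2, 16.8 and 101 CPM against 65.1, 47.7 and 130 CPM. Within each batch the iASPP-KO library was the lower one, but the groups overlapped because both libraries of batch 3 were high. The log2 fold change was −1.37 and −1.50 in batches 1 and 2 and −0.36 in batch 3, and −1.07 (SE 0.20) in the fit. As a share of the reads on *Acta2*, *Actg2*, *Actb* and *Actg1*, it took 0.852%, 0.595% and 2.84% in iASPP-KO and 2.20%, 1.45% and 2.76% in iASPP-WT, so that the share was lower in iASPP-KO in batches 1 and 2 and not in batch 3. The read-length stretches that *Acta2* shares with transcripts of other genes came to 0.752% of its longest transcript, against 56.9% for *Actg1* and 21.9% for *Actb*. The counts of those relatives, and so the size of the share, are the less certain.

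*Actg2* (chromosome 6, 83512905 to 83536265), the gamma-actin of visceral smooth muscle, was close to silent, with 15, 4 and 4 counts in iASPP-KO and 21, 32 and 9 in iASPP-WT. Its log2 fold change of −1.49 carried an SE of 1.07, and the groups overlapped. Depth limits this gene, since 3 counts in a library correspond to 0.123 to 0.140 CPM and its lowest library stood at 0.170 CPM.

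Among the proteins that lie along the actin filament, the level of *Cald1* (chromosome 6, 34598500 to 34775473) differed by about the same amount in every batch. Its 184, 178 and 182 CPM in iASPP-KO lay below 235, 227 and 225 CPM in iASPP-WT with no overlap, and its within-batch log2 fold changes were −0.35, −0.35 and −0.31, with −0.34 (SE 0.11) in the fit. Caldesmon binds both actin and myosin and restrains their sliding. Its replicates lay close together, with SDs of 2.81 CPM in iASPP-KO and 5.21 CPM in iASPP-WT (n = 3).

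Both tropomyosin genes were lower in iASPP-KO in batches 1 and 2 and close to equal in batch 3. *Tpm1* (chromosome 9, 67022590 to 67049406) stood at 1010, 861 and 1299 CPM in iASPP-KO and 1249, 1208 and 1282 CPM in iASPP-WT, with log2 fold changes of −0.31, −0.49 and 0.02 within batches and −0.26 (SE 0.12) in the fit. *Tpm2* (chromosome 4, 43514711 to 43523765) had 228, 170 and 390 CPM against 332, 270 and 416 CPM, with −0.54, −0.67 and −0.09 within batches and −0.43 (SE 0.13) in the fit. The groups overlapped for both genes, in each case because the iASPP-KO library of batch 3 was higher than at least 1 iASPP-WT library of another batch. *Tpm2* made up 11.7%, 10.3% and 16.2% of all tropomyosin reads in iASPP-KO and 13.1%, 10.8% and 14.6% in iASPP-WT, so its share was higher in iASPP-KO only in batch 3. Read-length stretches shared with other genes made up 18% of *Tpm3* and 13.7% of *Tpm4* but 0% of *Tpm2*. The counts of those relatives, and so the size of the share, are the less certain.

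*Tagln* (chromosome 9, 45929619 to 45936058), the transgelin gene and an early marker of smooth muscle, went in opposite directions between batches. It had 55, 123 and 333 counts in iASPP-KO and 169, 244 and 150 in iASPP-WT, or 2.45, 5.51 and 14.1 CPM against 7.90, 9.99 and 6.67 CPM. The iASPP-KO culture was the lower one in batches 1 and 2 and the higher one in batch 3. The within-batch log2 fold changes were −1.66, −0.85 and 1.07, and the fitted value of −0.47 (SE 0.46) averages over that reversal. Without batch 3 the fit gave −1.26, and without batch 1 it gave 0.12.

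*Cnn1* (chromosome 9, 22099216 to 22109630), the smooth muscle calponin gene, was detected in only 3 libraries, with 0, 13 and 16 counts in iASPP-KO and 0, 0 and 25 in iASPP-WT. It was at 0 in both cultures of batch 1, present in iASPP-KO alone in batch 2 and lower in iASPP-KO in batch 3. No direction can be read from these counts, and a fitted fold change for such a gene depends on the counts added before the logarithm.

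The actin linkers were lower in iASPP-KO in every batch. *Flna* (chromosome X, 74223461 to 74249820) stood at 1476, 1289 and 1156 CPM in iASPP-KO and 2120, 1673 and 1840 CPM in iASPP-WT, with no overlap, and its log2 fold changes were −0.52, −0.38 and −0.67 within batches and −0.52 (SE 0.11) in the fit. *Vcl* (chromosome 14, 20929398 to 21033676) had 251, 179 and 164 CPM against 324, 265 and 196 CPM, with −0.37, −0.57 and −0.26 within batches and −0.40 (SE 0.11) in the fit. Its groups overlapped, as the iASPP-WT library of batch 3 lay below the iASPP-KO library of batch 1.

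**Figure D3:**
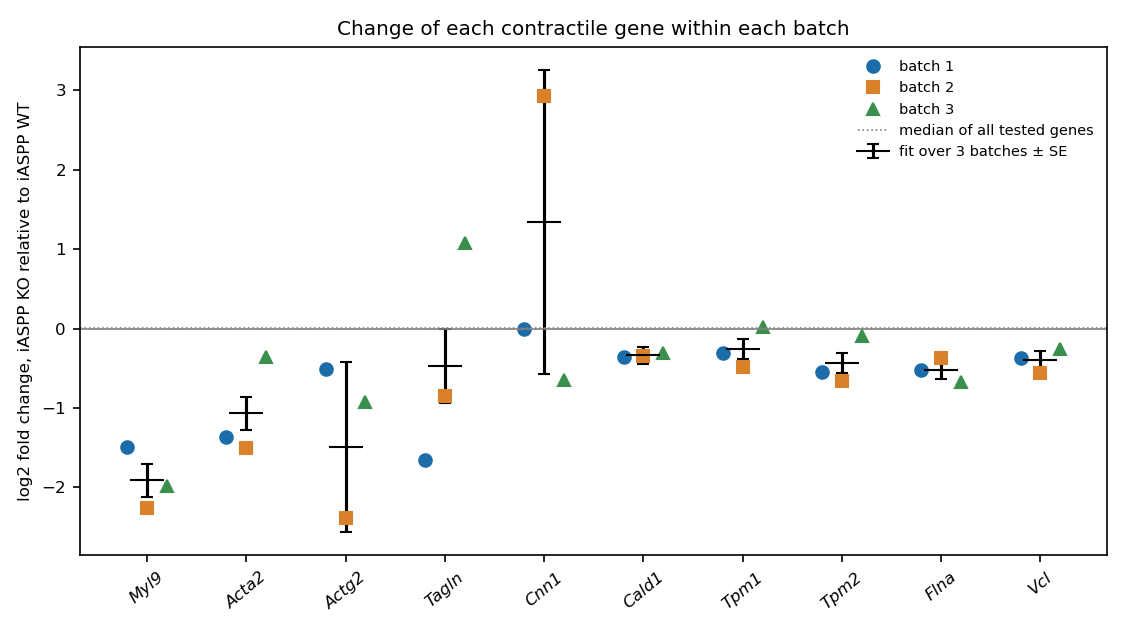
Log2 fold change between iASPP-KO and iASPP-WT for each gene (below 0 is lower in iASPP-KO), with 1 symbol per batch and, in black, the fitted value with its SE over the 3 batches, and a dotted line at the median of all tested genes. *Myl9* lies at −1.49, −2.26 and −1.98, *Cald1* within −0.35 to −0.31, and *Tagln* on both sides of 0 (−1.66, −0.85 and 1.07).

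Over the 10 genes the median log2 fold change was −0.45, beside 0.01 over all genes tested. Within the batches the medians were −0.51, −0.62 and −0.34, beside −0.01, 0.00 and 0.00 over all genes. At an adjusted p under 0.05, taken over all genes in that edgeR test, *Myl9*, *Acta2* and *Flna* were called lower, 3 of 10, beside 1.95% of all genes, and 0 of 10 were called higher, beside 2.17%. All 3 libraries of iASPP-KO lay below all 3 of iASPP-WT for *Myl9*, *Cald1* and *Flna*, beside 5.48% of all genes. The iASPP-KO culture was the lower one in every batch for 7 genes, all except *Tagln*, *Cnn1* and *Tpm1*, beside 19.5% of all genes. As the group was built around *Myl9* on this comparison, nothing is read from these counts. They also rested on single batches: *Myl9* alone was called without batch 2, *Myl9* and *Acta2* without batch 1, and 7 genes without batch 3, which added *Tagln*, *Tpm1*, *Tpm2* and *Vcl*. Without a batch term 0 of the 10 were called. Of 7 fibroblast markers, *Col1a2* and *Col3a1* were also lower in iASPP-KO in every batch. So were *Cspg4* and *Pdgfrb* of 7 markers of smooth muscle and pericytes. That is 2 of 7 tested fibroblast markers and 2 of 3 tested markers of smooth muscle and pericytes, beside 19.5% of all tested genes. The other markers of both lists were not lower in every batch, and *Myh11*, *Des*, *Rgs5* and *Kcnmb1* were too low to test. Their values are given after the batch comparison, and the part of such cells in these differences was not tested.

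The level of these genes across batches was not used to choose them and was tested in the same fit. *Acta2*, *Myl9*, *Tpm2* and *Vcl* differed between batches, 4 of 10, beside 15.8% of all genes (adjusted p = 0.00083, 0.0039, 0.0087 and 0.022 by edgeR). *Acta2* was higher in batch 3 than in batches 1 and 2, by 1.52 and 2.03 on the log2 scale. *Myl9* was likewise highest in batch 3, by 0.62 over batch 1 and 1.72 over batch 2, and *Tpm2* by 0.56 and 0.92. *Vcl* went the other way, with log2 differences of −0.66 and −0.28. The call for *Acta2* was also made with any 1 batch left out, whereas that for *Myl9* was lost without batch 2, that for *Vcl* without batch 1 and that for *Tpm2* without batch 2 or batch 3.

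Fibroblast markers moved with batch 3 as well, in both of its cultures. The summed level of 7 such markers (*Col1a1*, *Col1a2*, *Col3a1*, *Pdgfra*, *Dcn*, *Lum* and *Thy1*) was 37.1, 51.8 and 459 CPM in iASPP-KO and 34.1, 45.3 and 674 CPM in iASPP-WT, with *Col1a2* and *Col3a1* the highest of them in batch 3. Fibroblasts of skin can express *Acta2*, *Tagln* and *Myl9*, and the part of fibroblasts in the differences between batches and between conditions was not tested. Of the 7 markers, 2 were called lower in iASPP-KO and 0 higher, *Col3a1* with log2 fold changes of −0.43, −1.44 and −0.74 within batches and −0.87 (SE 0.18, adjusted p = 0.027 by edgeR) in the fit, and *Col1a2* with −0.45, −0.72 and −0.47 and −0.55 (SE 0.13, adjusted p = 0.043 by edgeR). *Col3a1* was not called without batch 2 or batch 3 (adjusted p = 0.157 and 0.072 by edgeR), and *Col1a2* was not called with any 1 batch left out (0.105 to 0.275). The sum itself was higher in iASPP-KO in batches 1 and 2, by 0.12 and 0.19 on the log2 scale, and lower in batch 3 (log2 difference −0.56). That rise came with *Pdgfra* (16.3 and 24.3 CPM in iASPP-KO against 6.59 and 7.99 CPM in iASPP-WT), and without it the sum was lower in iASPP-KO in every batch, with log2 differences of −0.40, −0.44 and −0.57, a setting chosen after the values were seen. In batch 3, *Tagln* (1.07) and *Tpm1* (0.02) were the members with a within-batch log2 fold change above 0.

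The summed level of 7 markers of smooth muscle and pericytes was 80.2 to 98.1 CPM in iASPP-KO and 73.4 to 104 CPM in iASPP-WT, of which *Notch3*, which keratinocytes also express, gave 39.7 to 96.6 CPM. The full sum was higher in iASPP-KO in batches 1 and 3 and lower in batch 2 (log2 differences 0.21, 0.13 and −0.19). Without *Notch3*, a setting chosen after the values were seen, it was 5.56, 3.50 and 21.9 CPM in iASPP-KO. In iASPP-WT it was then 9.17, 7.33 and 33.7 CPM, so this smaller sum was highest in batch 3 and lower in iASPP-KO in every batch. *Cspg4*, a proteoglycan gene of pericytes and other cells, was called lower, with log2 fold changes of −1.14, −1.50 and −1.57 within batches and −1.44 (SE 0.31, adjusted p = 0.031 by edgeR) in the fit, though not with any 1 batch left out (0.053 to 0.184). *Pdgfrb* had −0.83, −0.98 and −0.11 within batches and missed the threshold (adjusted p = 0.312 by edgeR), and *Myh11*, *Des*, *Rgs5* and *Kcnmb1* were at or near 0. The part of such cells in the differences of the contractile genes was not tested. Sums for skeletal muscle (0.374 to 3.27 CPM, led by *Acta1* and *Myog*) and endothelium (7.34 to 17.1 CPM, led by *Egfl7* and *Pecam1*) were low. Melanocyte markers, led by *Pmel* and *Tyrp1*, summed to 383 to 990 CPM in iASPP-KO and 328 to 1047 CPM in iASPP-WT.

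**Figure D4:**
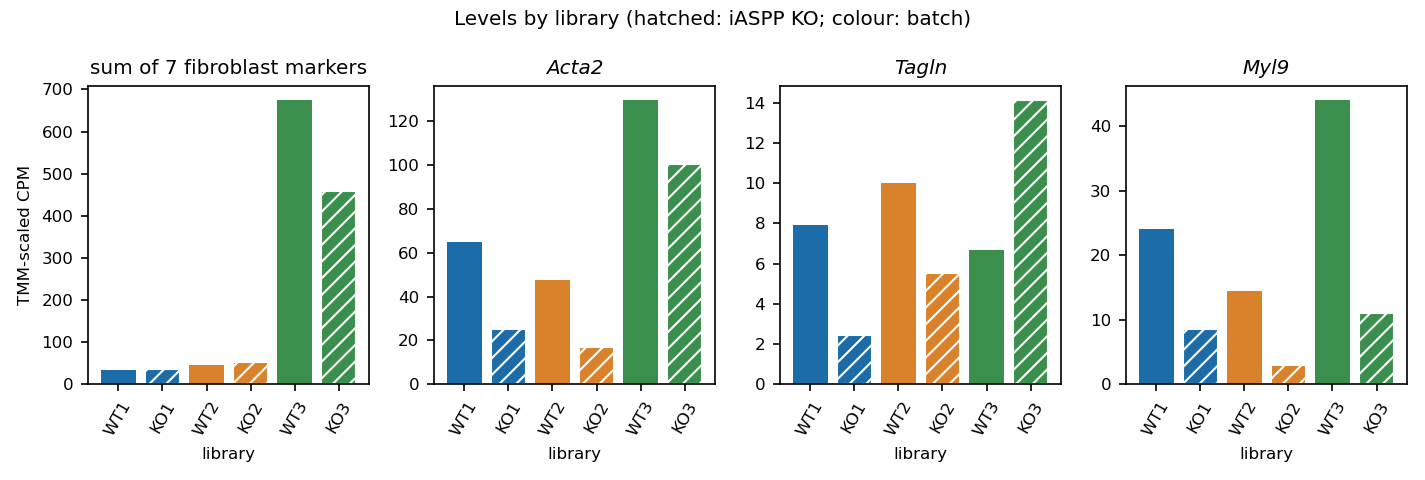
Summed level of 7 fibroblast markers and levels of *Acta2*, *Tagln* and *Myl9* in TMM-scaled CPM in each library, with plain bars for iASPP-WT, hatched bars for iASPP-KO and colour for the batch. The fibroblast sum is 459 and 674 CPM in batch 3 and 34.1 to 51.8 CPM elsewhere, and *Tagln* is highest in the iASPP-KO library of batch 3 (14.1 CPM).

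Whether the difference between iASPP-KO and iASPP-WT itself was another in batch 3 was tested with an added term in the fit, chosen after the values by batch had been seen. *Acta2* and *Tagln* passed, 2 of 10, beside 2.7% of all genes. For *Tagln* the log2 fold change in batch 3 exceeded that of batches 1 and 2 by 2.34 (SE 0.59), and for *Acta2* by 1.07 (SE 0.25), with adjusted p = 0.0054 and 0.0016 by edgeR. For *Myl9* the same difference was −0.13 (SE 0.40, adjusted p = 0.960 by edgeR), which does not show that the batches were alike. This fit leaves 1 residual degree of freedom, so the spread of a gene was taken from the trend over all genes, and these p-values may be too small for a gene that varies more than others of its level.

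The other parts of the machinery were read from a wider list of 51 genes, of which 47 were tested. Of these, 7 were lower in iASPP-KO and 0 higher by edgeR, with adjustment over all genes (18 and 0 at an unadjusted p under 0.05), beside the 1.95% and 2.17% of all genes given above and the 8.09% of all genes that were lower at an unadjusted p under 0.05. The log2 fold change was below 0 for 37 genes and above 0 for 10, with a median of −0.20 beside 0.01 over all genes. In 26 of the 47 the iASPP-KO culture was the lower one in every batch, beside 19.5% of all genes.

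Thin-filament proteins close to the chosen genes gave 3 of the 7 calls, out of 7 genes of that role. *Cnn2*, a calponin of nonmuscle cells, fell from 161 ± 23.9 to 90.6 ± 10.1 CPM (both SD, n = 3), by 0.83 on the log2 scale (SE 0.12, adjusted p = 0.0064 by edgeR). *Tpm4*, a tropomyosin of nonmuscle cells, fell from 972 ± 87.6 to 627 ± 55.0 CPM, a log2 fold change of −0.63 (SE 0.11, adjusted p = 0.014). *Tagln2*, the transgelin made outside muscle, fell from 381 ± 167 to 267 ± 104 CPM, with −0.49 (SE 0.11, adjusted p = 0.033 by edgeR), and its groups overlapped because its level differed between batches. These are relatives of *Cnn1*, *Tpm1*, *Tpm2* and *Tagln* that are made in many cell types. The further relatives *Cnn3* and *Tpm3* had log2 fold changes of −0.39 and −0.19 and missed the threshold (adjusted p = 0.199 and 0.556 by edgeR). *Actb*, the cytoplasmic beta-actin gene and the highest of the wider list in CPM, had 3047 ± 339 against 3552 ± 885 CPM and a log2 fold change of −0.20 that missed the threshold (adjusted p = 0.442 by edgeR).

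Another 3 calls came from the 16 crosslinkers and adhesion linkers. *Zyx*, whose product zyxin gathers on stressed actin bundles, fell by 0.81 on the log2 scale (SE 0.13, adjusted p = 0.0084 by edgeR). *Csrp1*, a LIM-domain protein of smooth muscle and other cells, fell by 0.64 (SE 0.11, adjusted p = 0.010), and *Pdlim7*, a protein with PDZ and LIM domains, fell by 0.64 (SE 0.14, adjusted p = 0.031 by edgeR). All 3 iASPP-KO libraries were below all 3 iASPP-WT libraries for each of these genes. With these included, the same held for 6 of the 16 genes of the role, beside 5.48% of all genes. As these genes were named for their calls, nothing is read from it.

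*Srf* was the last of the 7, at the edge of the threshold. Its level was 33.3 ± 6.11 CPM in iASPP-KO and 50.4 ± 2.89 CPM in iASPP-WT, a log2 fold change of −0.61 (SE 0.15, adjusted p = 0.049 by edgeR), with −0.43, −0.92 and −0.50 within the batches. Neither coactivator gene passed, with log2 fold changes of −0.05 for *Mrtfb* and −0.03 for *Mrtfa*. *Myocd*, the myocardin gene of smooth and cardiac muscle, had 10 counts in 1 library and 0 in the others and was not tested. *Srf* and *Cnn2* also carry strict CArG boxes before their start sites and are shown for comparison with *Myl9* and *Vcl* (Srf chr17:46556195-46556264, minus strand, and Cnn2 chr10:79988524-79988573, plus strand), again with the boxes in capitals.
Srf: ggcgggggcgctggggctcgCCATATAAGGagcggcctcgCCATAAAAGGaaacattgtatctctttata
Cnn2: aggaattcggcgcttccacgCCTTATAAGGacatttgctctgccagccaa

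Of the 42 genes of the wider list with a promoter in the table, 5 held a strict box (*Srf*, *Cnn2*, *Fhl2*, *Myl6* and *Actg1*). That stands beside 1.63% of promoters, and a gene can have more than 1 promoter. Of those 5, 2 were called, beside 7 of the 47 tested genes of the list. The log2 fold changes of *Fhl2*, *Myl6* and *Actg1* were −0.02, −0.06 and 0.05, and nothing is read from these counts. The box in *Cnn2* has the same 10 letters as that in *Vcl*.

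In the remaining roles no gene passed the threshold, beside 1.95% of all genes called lower and 2.17% called higher. At an unadjusted p under 0.05 by edgeR, 8.09% of all genes were lower. At these shares few or no calls would come from so few genes, so the absence of calls does not show that these roles were unchanged. Of 6 genes of nonmuscle myosin II and its light chains 0 were called (1 lower at an unadjusted p under 0.05), among them *Myh9*, the heavy chain, with 947 ± 142 against 1121 ± 212 CPM and a log2 fold change of −0.24 (SE 0.10, adjusted p = 0.288 by edgeR), and *Myl6*, the essential light chain, with −0.06. Of 9 genes that control myosin phosphorylation 0 were called (4 lower at an unadjusted p under 0.05). In myosin phosphatase, the enzyme that reverses the phosphorylation, the log2 fold change was 0.23 for the catalytic subunit *Ppp1cb* and −0.31 for the targeting subunit *Ppp1r12a* (adjusted p = 0.332 and 0.213 by edgeR). *Mylk*, the kinase that phosphorylates the *Myl9* product, averaged 0.583 CPM in iASPP-KO and 0.966 CPM in iASPP-WT, and no direction could be read at this depth. Of the genes of smooth muscle differentiation 0 of 5 tested were called (0 at an unadjusted p under 0.05), with −0.03 for *Smtn*, and *Myh11*, *Des* and *Kcnmb1* were too low to test.

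The calls of the wider list depended on the batches. Without batch 2 the call for *Cnn2* was the only one of the 7 still made by edgeR, without batch 1 those for *Cnn2*, *Csrp1*, *Tpm4* and *Zyx* were, and without batch 3 all 7 were, beside 6 others, among them *Actn1*, *Palld* and *Rhob*. Without a batch term 0 were called.

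**Figure D5:**
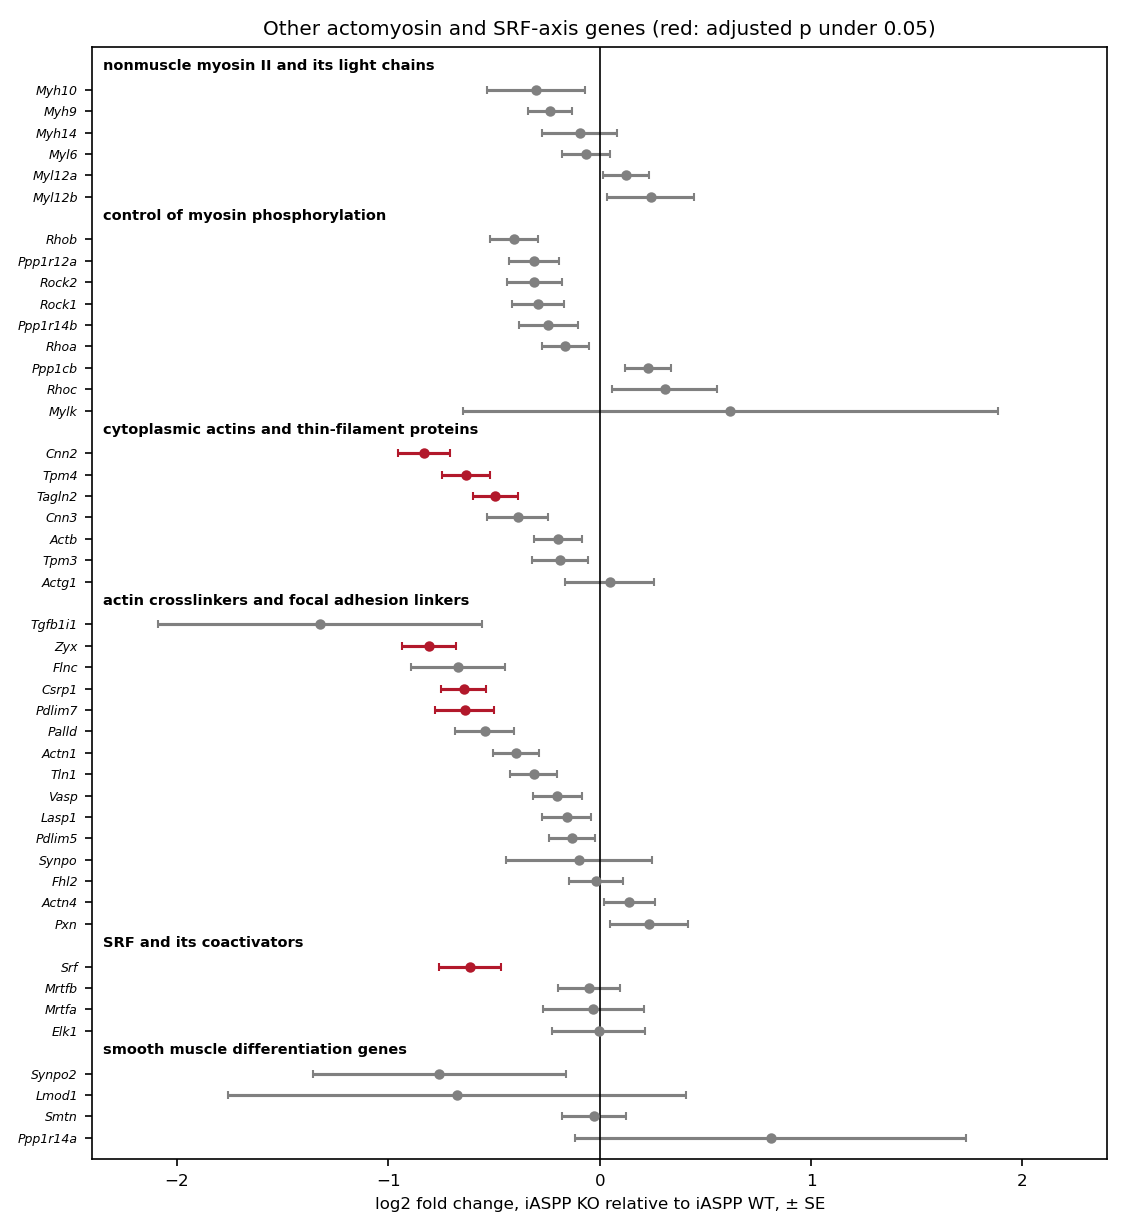
Fitted log2 fold change between iASPP-KO and iASPP-WT (below 0 is lower in iASPP-KO), drawn with its SE, for 45 of the 47 tested genes of the wider list, grouped by role, with genes past the adjusted threshold in red. The 7 red genes lie between −0.83 (*Cnn2*) and −0.49 (*Tagln2*), and 36 of the 45 plotted values are below 0.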

How the data were processed

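RNA of 6 cultures was sequenced, 3 of iASPP-KO and 3 of iASPP-WT, grouped and paired in 3 batches by the labels. The authors trimmed reads with cutadapt 2.10, aligned them with STAR 2.7.3 to mm10 (GRCm38) with GENCODE annotation, and deposited raw counts per gene name from featureCounts 2.0.0, taken on exons by strand and not normalized. Versions are those in the submitters' processing notes. Their own comparison table, with DESeq2 fold changes and p-values, was not used.

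The deposited counts (20202517 to 25157117 per library) were tested here in R 4.3.3 with edgeR 4.0.16, using filterByExpr on the conditions (minimum count 10), TMM factors of 0.916 to 1.11, and glmQLFit and glmQLFTest with batch and condition as terms, with Benjamini-Hochberg adjustment over all tested genes and 0.05 as the threshold. Degrees of freedom were 2 (residual) and 8.17 (prior), at a common dispersion of 0.0627. An SE was obtained as the absolute log2 fold change over the root of F. Within-batch values are differences of log2 CPM after adding 2 counts, scaled to library size. Depth gives each library a floor, taken at 3 counts, of 0.123 to 0.140 CPM. Intervals and floors cover counting error only, as molecules were not tagged.

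The batches come from the labels, and cultures of a batch deviated together (correlations of deviations from group means 0.577, 0.704 and 0.768 over 8771 genes). Whether batches are separate litters is not given in the sources used here, and p-values then measure the spread between these cultures. No library was a copy of another (chi-square per gene 39.7 to 172.5 between cultures of a condition).

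The members, the wider list, the marker lists and the tests were chosen with earlier results of these data known. Named genes are all members, the targeted gene, every gene of the wider list past the threshold, the 2 highest of each role and of each marker list, and others where a sentence says what singles them out. A few named by this rule are counted but not reported here. Alternatives were no batch term, DESeq2 1.42.0, DESeq2 size factors, no filter, at least 10 counts in every library, robust dispersion, each batch left out, and 0.5 counts added. The batch 3 term, the relaxed CArG rule and the marker sums without 1 marker were added after seeing the data. Steps were tested on simulated data. Shared stretches are windows of 42 bases of a gene's longest GENCODE vM21 transcript found in a transcript of another gene. No member overlapped another gene on its strand. Genes on the opposite strand overlap *Tagln*, *Cald1* and *Vcl*, whose reads the stranded counting separates.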

Additional observations from a re-analysis of the deposited data

Results flagged for a closer look

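A term in the edgeR fit asked whether iASPP-KO and iASPP-WT differed by another amount in batch 3 than in batches 1 and 2. It was added after the values by batch had been seen. With Benjamini-Hochberg adjustment 402 of all 14916 genes passed (1793 at an unadjusted p under 0.05). The members and genes of the wider list named below were among them. As the members were chosen on this comparison, the shifts are given as a description without p-values, and nothing is read from the passing of these genes. *Tagln* had the largest shift of these, 2.34 on the log2 scale, from within-batch values of −1.66 and −0.85 to 1.07. *Acta2* shifted by 1.07, from −1.37 and −1.50 to −0.36, without a change of direction. *Pxn*, the gene of the focal adhesion scaffold paxillin, shifted by 0.97, from −0.18 and 0.00 to 0.88. *Myh14*, a heavy chain of nonmuscle myosin II, shifted by −0.88, from 0.13 and 0.24 to −0.69. The fit leaves 1 residual degree of freedom, so too many genes may pass among those that vary more than others of their level. Batch 3 is 1 pair of cultures, so each shift rests on 2 libraries, in which the fibroblast markers summed to 459 and 674 CPM. The part of those cells in the shifts was not tested.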

How the results depend on the processing

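Over the alternatives no result with a call turned its direction. Without the batch term (no replicate block) 0 genes were called lower and 0 higher by edgeR (331 and 360 at an unadjusted p under 0.05), against 291 and 323, with 0 of the wider list (7 at an unadjusted p) and 0 of the members (3). DESeq2 called 439 lower and 538 higher, 11 of the wider list and 5 members, and leaving out the filter on low counts gave 491 lower, 624 higher and 5 members. In both cases *Tpm2* and *Vcl* joined *Myl9*, *Acta2* and *Flna*. Leaving out 1 batch gave 117 to 662 genes lower and 169 to 793 higher, 1 to 13 of the wider list, 1 to 7 members, 689 to 2644 genes and 2 to 3 members that differed between batches. Calls between conditions were most without batch 3, while genes that differed between batches were fewest without it. Over all alternatives with a batch term the log2 fold change of *Myl9* ran from −2.12 to −1.74, that of *Acta2* from −1.44 to −0.85 and that of *Flna* from −0.59 to −0.45, whereas that of *Tagln* ran from −1.26 to 0.12 and that of *Cnn1* from −0.66 to 1.61. The adjusted p of *Cnn2* reached at most 0.047, that of *Zyx* 0.073 and that of *Srf* 0.344. With 0.5 in place of 2 counts added, all 30 within-batch values moved by less than the SD between batches. Depth limits *Actg2*, *Cnn1* and *Mylk*, for which differences were not detectable.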

Other observations

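*Myh11*, the smooth muscle myosin heavy chain gene, was too low to test but its counts did not follow the rest of the group: 13, 6 and 19 across batches 1, 2 and 3 of iASPP-KO against 1, 2 and 0 for iASPP-WT. *Des*, the desmin gene, had 9, 5 and 0 counts against 0, 0 and 0. These genes were singled out after their values were seen, and neither had enough reads to be tested. For *Myh11* the iASPP-KO counts were above the floor of 3 counts and the iASPP-WT counts below it. *Palld*, the gene of the actin-bundling protein palladin, missed the threshold with a log2 fold change of −0.54 (SE 0.14, adjusted p = 0.059 by edgeR) but passed it in 6 of 8 alternatives that kept the batch term. Of the genes that control myosin phosphorylation, *Rhob*, *Rock1* and *Ppp1r12a* had all 3 iASPP-KO libraries below all 3 iASPP-WT libraries, beside 5.48% of all genes, with log2 fold changes of −0.40, −0.29 and −0.31 that missed the threshold (adjusted p = 0.081, 0.258 and 0.213 by edgeR).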
